A study of Mus musculus with 9 samples.

Results

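The 7 mature miRNAs described here are encoded inside the Hox gene clusters: mmu-miR-10a-5p, mmu-miR-10a-3p, mmu-miR-10b-5p, mmu-miR-10b-3p, mmu-miR-196a-5p, mmu-miR-196b-5p and mmu-miR-615-3p. They were chosen by their genomic origin and form 7 of the 1966 miRNAs in the deposited count table. The study asked how loss of the Muscleblind-like splicing regulators MBNL1 and MBNL2, RNA-binding proteins that are sequestered in myotonic dystrophy, affects miRNA levels in muscle. Small RNA of the quadriceps of mice aged 90 days was sequenced in 9 libraries, 3 per group. WT mice were C57BL/6J with the genotype Mbnl1+/+ and Mbnl2+/+. Mbnl1KO mice were C57BL/6J, homozygous for an Mbnl1 allele without exon 3 (ΔE3/ΔE3), with Mbnl2+/+. Mbnl2KO mice were of the strain B6.C-Tg(CMV-cre)1Cgn/J, in which the CMV promoter drives Cre, with Mbnl1+/+. Their Mbnl2 genotype is labelled ΔE2/ΔE2 for replicate 1, ΔE2/ΔE3 for replicate 2 and ΔE2/ΔE4 for replicate 3, while the study's text names a single deletion of exon 2. Mbnl2KO therefore differs from both other groups in the labelled strain as well as in genotype, and these cannot be told apart, although the study calls its WT mice littermates. Mbnl transcripts are not part of a small RNA table, so the knockouts were not checked in these libraries.

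Hox genes encode homeodomain transcription factors that set position along the body axis, and they lie in a few clusters in which gene order follows the order of expression. The miRNAs of these clusters are transcribed from the same domains, remain detectable in adult tissues in a position-dependent way, and can repress Hox mRNAs. miR-196 is the classical example, since it directs cleavage of the Hoxb8 mRNA. A miRNA recognises its targets mainly through its seed, the bases 2 to 8 counted from the 5′ end.

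Mature sequences of 7 of 7 members were found by name in RefSeq (table build GRCm38.p6). They carry 5 distinct seeds and are 22 or 23 nt long. They are printed to show which members share a seed, which is in capitals.
mmu-miR-10a-5p: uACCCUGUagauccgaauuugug
mmu-miR-10b-5p: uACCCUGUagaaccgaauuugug
mmu-miR-196a-5p: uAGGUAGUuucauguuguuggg
mmu-miR-196b-5p: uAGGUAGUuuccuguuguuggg
mmu-miR-615-3p: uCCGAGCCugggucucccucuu
mmu-miR-10a-3p: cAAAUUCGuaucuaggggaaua
mmu-miR-10b-3p: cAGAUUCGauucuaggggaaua

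mmu-miR-10a-5p and mmu-miR-10b-5p share the seed ACCCUGU and differ by the single substitution U12A, with positions counted from 1 at the 5′ end and the base of mmu-miR-10a-5p given first. mmu-miR-196a-5p and mmu-miR-196b-5p share the seed AGGUAGU and differ by A12C. In both pairs only a read that covers position 12 can tell the members apart. The 3p arms of the miR-10 hairpins differ by A3G, U9A and A10U, so their seeds differ. The related miR-99 and miR-100 family lies outside the Hox clusters and is printed here because its seed differs from that of miR-10.
mmu-miR-100-5p: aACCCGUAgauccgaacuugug
mmu-miR-99a-5p: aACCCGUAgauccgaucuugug

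The 6 miRNA genes lie in all 4 Hox clusters (coordinates on GRCm39, GENCODE M39). Mir10a is at chr11:96207991-96208100 on the plus strand of the Hoxb cluster, 0.99 kb upstream of Hoxb4 and within no Hox gene. Mir10b is at chr2:74556414-74556481 on the plus strand of the Hoxd cluster, in an intron of annotated transcripts of Hoxd4 and Hoxd3. Mir196b is at chr6:52207061-52207145 on the minus strand of the Hoxa cluster, 1.02 kb from Hoxa10, and overlaps an exon of 2 of the 5 transcripts of Hoxa9. Mir615 is at chr15:102923342-102923433 on the plus strand of the Hoxc cluster, in an intron of both annotated transcripts of Hoxc5. mmu-miR-196a-5p has 2 genes. Mir196a-1 is at chr11:96155990-96156091, 6.06 kb upstream of Hoxb9, and Mir196a-2 is at chr15:102881785-102881869, between Hoxc10 and Hoxc9 and in an intron of 1 of 2 Hoxc5 transcripts. Both hairpins contain the same mature sequence, so its count cannot be divided between the Hoxb and Hoxc copies. The map of the 6 loci shows these positions in kb from each miRNA gene.

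**Figure D1:**
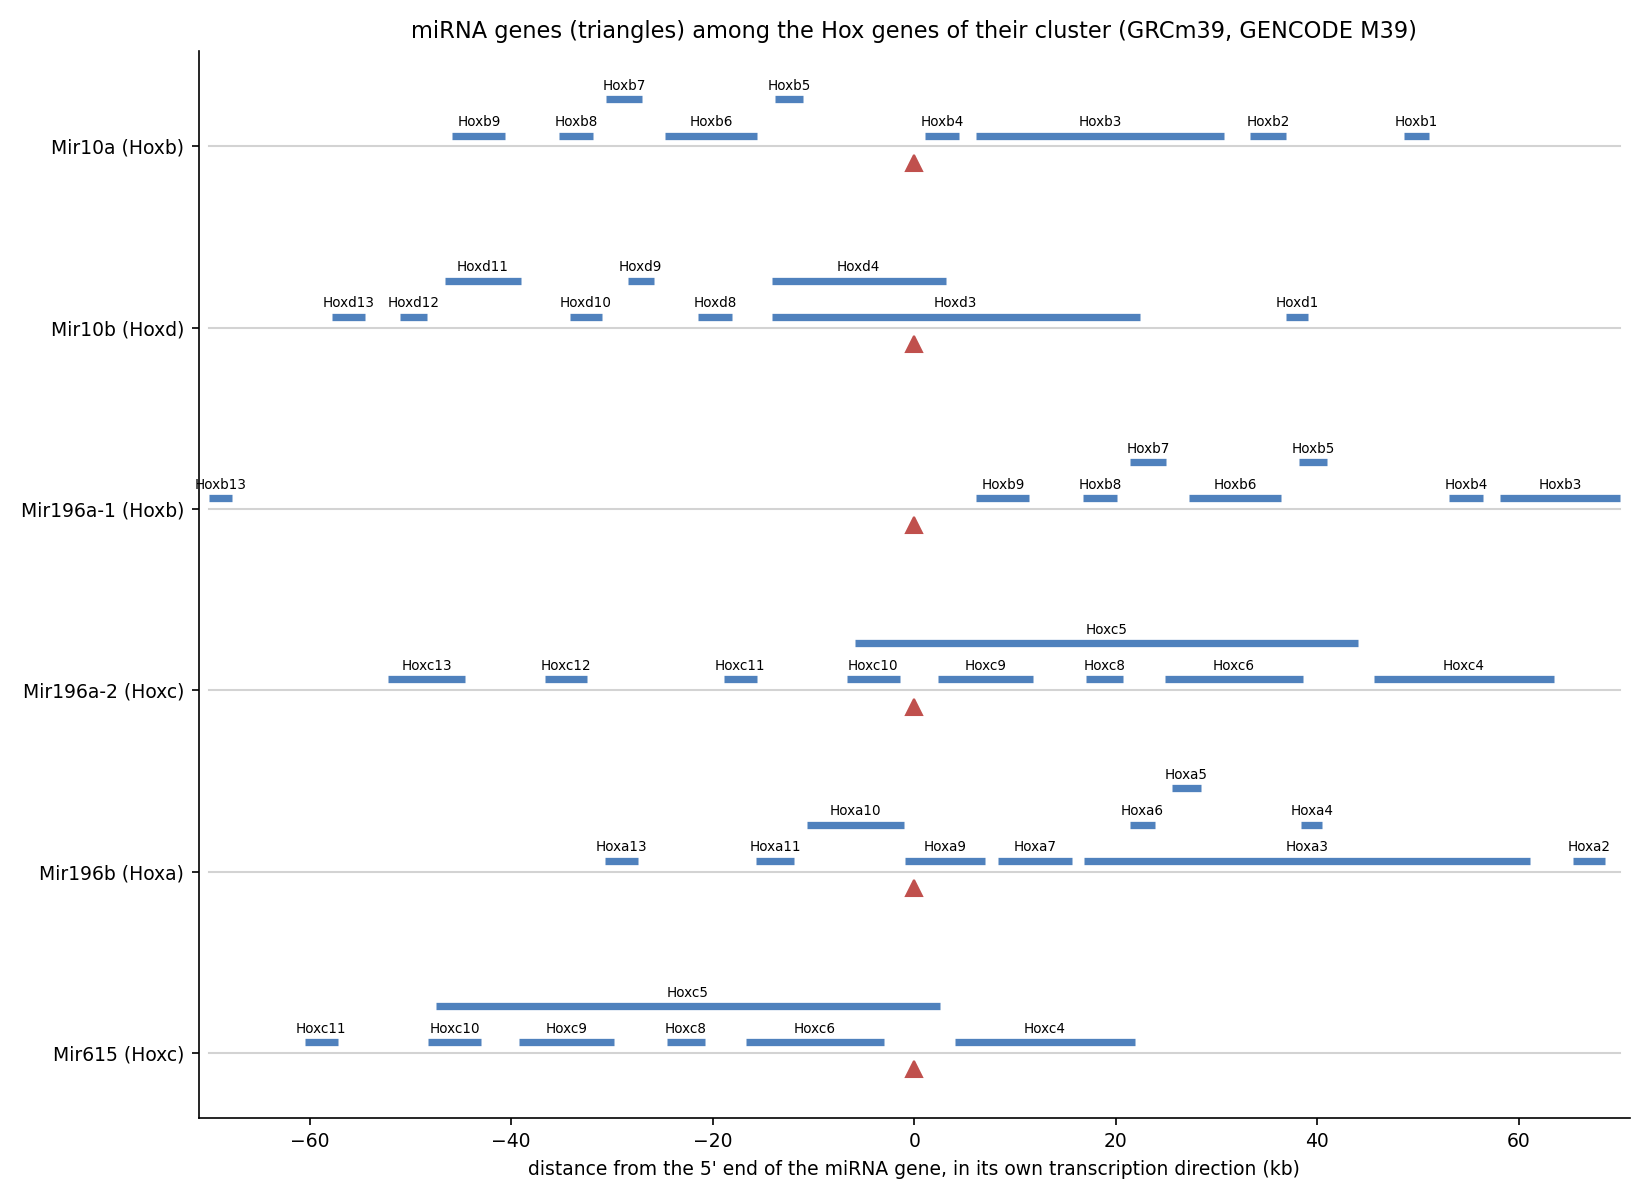
Position of the 6 miRNA genes (triangles, 1 row per gene, with the Hox cluster in brackets) among neighbouring Hox genes (blue bars, gene models from GENCODE M39, cut at the ends of the axis). The x axis is the distance in kb from the 5′ end of the miRNA gene in its own direction of transcription. Mir10a lies 0.99 kb before Hoxb4, and Mir615 lies inside the gene model of Hoxc5.

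The complements of 3 seeds were searched, without GU pairs and on the sense strand, in the 3′ UTR of 1 canonical transcript per gene. Over all 20708 genes with a 3′ UTR, the miR-196 match ACTACCT was present in 6.71%, the miR-10-5p match ACAGGGT in 14.3% and the miR-615-3p match GGCTCGG in 2.55%. A match is a run of letters, with no measurement of repression.

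Some sites are printed as found in the genome, to show how far the members pair with Hox transcripts. Over all Hox 3′ UTRs, the window with the most pairs to mmu-miR-196a-5p was in Hoxb8 (chr11:96175714-96175735, plus strand), with 21 Watson-Crick pairs and 1 GU pair at position 5 of the miRNA, against 15 pairs in the next best gene. mmu-miR-196b-5p makes 20 Watson-Crick pairs there. The other lines give seed matches of miR-196, miR-10-5p and miR-615-3p in other Hox genes. Capitals mark Watson-Crick pairs with mmu-miR-196a-5p in the first line, and the seed match in the lines for Hoxa7 (chr6:52192190-52192211, minus strand), Hoxd1 (chr2:74595274-74595296, plus strand) and Hoxb4 (chr11:96211669-96211690, plus strand).
Hoxb8, miR-196 site: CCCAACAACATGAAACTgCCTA
Hoxa7, miR-196 site: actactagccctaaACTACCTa
Hoxd1, miR-10-5p site: tagcggaacaaatccACAGGGTa
Hoxb4, miR-615-3p site: aacaaatgaggccaGGCTCGGc

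Total counts per library ran from 4761271 to 6277018, and the 7 members together took 0.397% to 0.63% of them. The muscle miRNA mmu-miR-1a-3p took 61.4% to 73.7%, so a change in it moves every other share. For this reason levels are given as per-million counts (CPM) scaled by the trimmed mean of M values (TMM), with factors from 0.826 to 1.265 for the libraries. These factors are large beside the changes below. For the members, the effect of unscaled totals is stated where it alters a call or the overlap of groups. Markers of other cell types present in muscle were measured alongside. The muscle markers mmu-miR-1a-3p and mmu-miR-206-3p were present, while mmu-miR-486a-5p, mmu-miR-126a-3p, mmu-miR-142a-3p, mmu-miR-9-5p and mmu-miR-203-3p were listed at 0 in all libraries. Such a 0 says only that this table lists no count for the miRNA, and absence from the muscle cannot be read from it. The study itself reports mmu-miR-203-3p as changed in both knockouts and miR-486 among those most changed in Mbnl1KO. For these miRNAs the 0s thus differ from the study's own results. In bulk muscle, fewer cells of a type and less RNA per cell cannot be told apart.

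The members fell into the same order in 9 of 9 libraries: mmu-miR-10b-5p, mmu-miR-10a-5p, mmu-miR-196a-5p, mmu-miR-196b-5p, mmu-miR-615-3p, mmu-miR-10b-3p and mmu-miR-10a-3p. In WT muscle mmu-miR-10b-5p ranked 23rd among all miRNAs by mean CPM, mmu-miR-196a-5p 36th and mmu-miR-615-3p 92nd. The ratio of mmu-miR-10b-5p to mmu-miR-10a-5p lay between 1.92 and 2.73. The ratio of mmu-miR-196a-5p to mmu-miR-196b-5p lay between 3.62 and 5.13. The closest neighbours were mmu-miR-10a-5p and mmu-miR-196a-5p, which differed by as little as 1.05 times in 1 WT library and by at most 2.25 times. Library preparation favours some sequences over others, so levels of different miRNAs are set side by side only as counts.

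**Figure D2:**
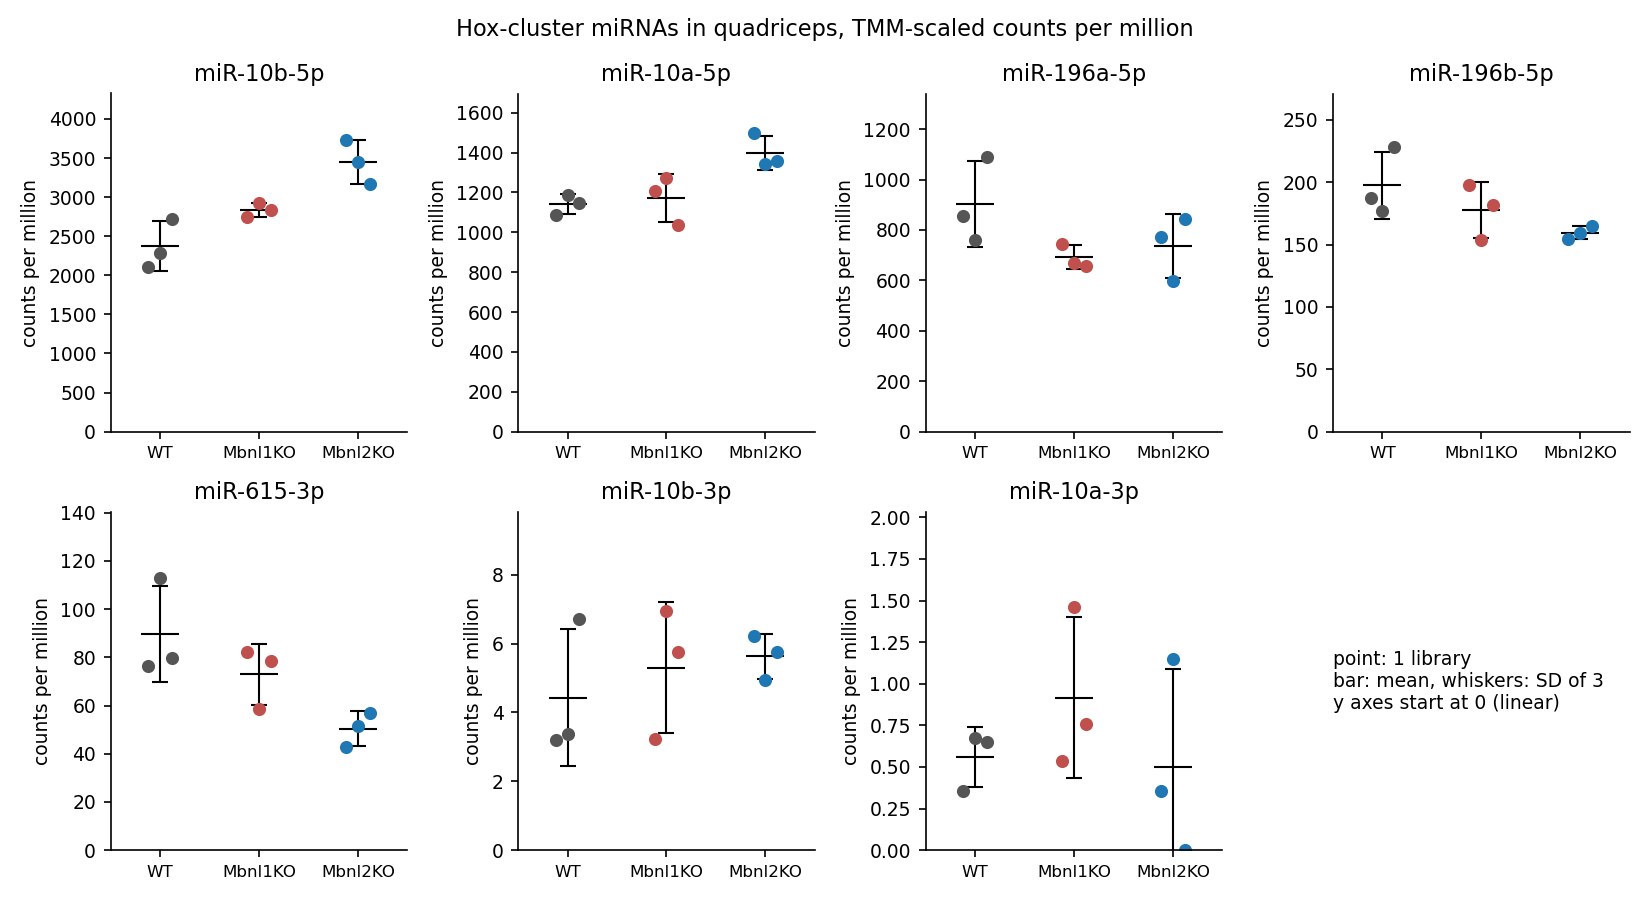
Level of each of the 7 members in TMM-scaled CPM (y axis, linear from 0) by group (x axis). Points are libraries, horizontal bars are means and whiskers are SD (n = 3). The Mbnl2KO points of miR-10b-5p lie above, and those of miR-615-3p below, every WT point.

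mmu-miR-10b-5p, the most abundant member and the product of the Hoxd locus, measured 2107, 2281 and 2725 CPM in WT replicates 1 to 3. In Mbnl1KO it measured 2743, 2931 and 2833 CPM. In Mbnl2KO it measured 3727, 3449 and 3171 CPM. On this scale the groups did not overlap, with WT lowest and Mbnl2KO highest. With unscaled totals, Mbnl2KO replicate 3 (14352 of 5479314 counts) lay below WT replicate 3 (12568 of 4761271). Mbnl2KO then overlapped both other groups, and Mbnl1KO stayed above WT. The means were 2371 ± 319, 2835 ± 93.9 and 3449 ± 278 CPM (SD, n = 3).

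mmu-miR-10a-5p, which shares its seed and comes from the Hoxb locus, measured 1087, 1188 and 1148 CPM in WT, and 1208, 1274 and 1038 CPM in Mbnl1KO. In Mbnl2KO it measured 1498, 1344 and 1357 CPM. Mbnl1KO overlapped WT, and the Mbnl2KO libraries lay above all others. With unscaled totals, Mbnl2KO replicate 3 (6140 of 5479314 counts) lay below WT replicate 2 (7057 of 6135797). Mbnl2KO then overlapped both other groups.

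mmu-miR-196a-5p, which carries the pairing with Hoxb8, measured 855, 761 and 1091 CPM in WT and 746, 671 and 658 CPM in Mbnl1KO. In Mbnl2KO it measured 772, 597 and 844 CPM. The 3 Mbnl1KO values were all under the lowest WT value, whereas Mbnl2KO overlapped both groups. With unscaled totals, Mbnl1KO replicate 1 (5563 of 5896105 counts) lay above WT replicate 1 (4832 of 6147836). Mbnl1KO then overlapped WT, and every Mbnl2KO library lay below WT. mmu-miR-196b-5p measured 188, 177 and 228 CPM in WT, 198, 154 and 182 CPM in Mbnl1KO and 154, 159 and 165 CPM in Mbnl2KO. Only the Mbnl2KO libraries lay entirely below WT.

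mmu-miR-615-3p, from the Hoxc5 intron, measured 76.6, 112.8 and 79.6 CPM in WT, with raw counts of 433, 670 and 367. In Mbnl1KO it measured 82.2, 58.4 and 78.3 CPM. In Mbnl2KO it measured 43.0, 51.4 and 57.0 CPM, with raw counts of 242, 313 and 258. Mbnl2KO lay below both other groups, and Mbnl1KO overlapped WT.

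The passenger arms were rare. mmu-miR-10b-3p had raw counts of 18, 20 and 31 in WT, 24, 38 and 38 in Mbnl1KO and 35, 30 and 26 in Mbnl2KO. It took between 0.117% and 0.246% of the counts of its hairpin. mmu-miR-10a-3p had raw counts of 2, 4 and 3 in WT, 4, 8 and 5 in Mbnl1KO and 2, 7 and 0 in Mbnl2KO. The count of 0 of 5479314 allows a level of up to 0.548 CPM on the unscaled total, counting error only. mmu-miR-10a-3p did not reach the mean normalized count above 10 needed for testing, and it is not among the 6 members tested. The other arms of the hairpins, mmu-miR-615-5p, mmu-miR-196a-1-3p, mmu-miR-196a-2-3p and mmu-miR-196b-3p, also did not reach it. mmu-miR-196b-3p had 11, 9 and 2 counts in WT, 6, 3 and 3 in Mbnl1KO and 12, 6 and 5 in Mbnl2KO.

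The first comparison asked which miRNAs depend on MBNL1. In Mbnl1KO muscle mmu-miR-196a-5p fell by 0.44 on the log2 scale (SE 0.150, adjusted p = 0.0124 by the quasi-likelihood test of edgeR, with p-values adjusted after Benjamini and Hochberg over all miRNAs tested). It was the only member differentially expressed, 1 of 6 tested, at an adjusted p under 0.05. Of all 319 miRNAs tested, 33.5% were differentially expressed. Groups that do not overlap were found for 2 of the 6 members, mmu-miR-10b-5p and mmu-miR-196a-5p, against 43.6% of all tested. Neither count exceeds the background, so nothing about the members is read from them. With unscaled totals mmu-miR-196a-5p overlapped WT. WT libraries are shared between this comparison and the next.

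The other members did not pass the test in Mbnl1KO. mmu-miR-615-3p had a log2 fold change of -0.37 (SE 0.172, adjusted p = 0.0833, edgeR) and was called only without Mbnl1KO replicate 1 (adjusted p = 0.0437). Without WT replicate 2 it was -0.17 (adjusted p = 0.568), and on unscaled library totals -0.054 (adjusted p = 0.855). mmu-miR-196b-5p had -0.22 (SE 0.160, adjusted p = 0.296), which turned to 0.09 on unscaled library totals and ran from -0.31 to -0.13 when a library was left out. mmu-miR-10b-5p had 0.20 (SE 0.150, adjusted p = 0.313). mmu-miR-10a-5p had -0.03 (SE 0.149, adjusted p = 0.902), which turned to 0.28 on library totals. mmu-miR-10b-3p had 0.21 with a wide SE of 0.343.

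The call for mmu-miR-196a-5p did not hold in every setting. Without TMM, on unscaled library totals, its log2 fold change was -0.14 (adjusted p = 0.577, edgeR), while mmu-miR-10b-5p was then called higher with 0.49 (adjusted p = 0.0221). Over all miRNAs tested, that setting moved the median from -0.01 to 0.30 (log2). With all 9 libraries in 1 fit the log2 fold change of mmu-miR-196a-5p was -0.38 (adjusted p = 0.0543). It was -0.45 without WT replicate 1 (adjusted p = 0.0531), -0.31 without WT replicate 3 (adjusted p = 0.109) and -0.39 without Mbnl1KO replicate 3 (adjusted p = 0.0773).

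The second comparison asked the same for MBNL2. In Mbnl2KO muscle mmu-miR-615-3p fell by 0.84 on the log2 scale (SE 0.166, adjusted p = 0.00457, edgeR), from a mean of 89.7 ± 20.1 to 50.5 ± 7.07 CPM (SD, n = 3). mmu-miR-10b-5p rose by 0.53 (SE 0.131, adjusted p = 0.0235). These were 2 of 6 members tested, against 5.8% of all 293 miRNAs tested in this comparison. Members whose groups did not overlap numbered 4 of 6 against 23.2% of all tested, namely mmu-miR-10a-5p and mmu-miR-10b-5p above WT and mmu-miR-196b-5p and mmu-miR-615-3p below it. These counts depend on the scaling. With unscaled totals mmu-miR-10a-5p and mmu-miR-10b-5p overlapped WT, whereas mmu-miR-196a-5p then lay below it. The share over all tested was not computed on that scale.

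The other 4 tested members missed the threshold. mmu-miR-10a-5p had a log2 fold change of 0.29 (SE 0.120, adjusted p = 0.206, edgeR). mmu-miR-196b-5p had -0.32 (SE 0.142, adjusted p = 0.250), mmu-miR-196a-5p had -0.30 (SE 0.162, adjusted p = 0.363), and mmu-miR-10b-3p had 0.36 (SE 0.341, adjusted p = 0.586). When a library was left out, mmu-miR-196b-5p ran from -0.38 to -0.20, mmu-miR-196a-5p from -0.40 to -0.13 and mmu-miR-10b-3p from 0.20 to 0.77.

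The fall of mmu-miR-615-3p in Mbnl2KO was lost in 1 setting only, without WT replicate 2, the WT library with the highest level (log2 fold change -0.63, adjusted p = 0.0832, edgeR). The rise of mmu-miR-10b-5p was lost on library totals (log2 fold change 0.54, adjusted p = 0.0568, edgeR). Leaving out WT replicate 1 gave 0.0574, leaving out Mbnl2KO replicate 1 gave 0.0642, and leaving out WT replicate 2 gave 0.0832. The log2 fold change itself ran from 0.47 to 0.65 when a library was left out.

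The direct comparison of the knockouts used no WT library. mmu-miR-615-3p was higher in Mbnl1KO than in Mbnl2KO by 0.51 on the log2 scale (SE 0.181, adjusted p = 0.0366, edgeR), with means of 72.9 ± 12.8 and 50.5 ± 7.07 CPM. This was 1 of 6 members, against 27.3% of all 311 tested. Groups did not overlap for 3 of 6 members against 42.8% of all tested, and in the other 2, mmu-miR-10a-5p and mmu-miR-10b-5p, Mbnl1KO was the lower group. With unscaled totals the knockouts overlapped for both of these members. Their log2 differences were -0.29 (SE 0.145, adjusted p = 0.145) and -0.32 (SE 0.143, adjusted p = 0.105). Both were called lower in Mbnl1KO with DESeq2's Wald test, with adjusted p of 0.0495 for mmu-miR-10a-5p and 0.0175 for mmu-miR-10b-5p, a test in which mmu-miR-615-3p had 0.104. With DESeq2's size factors in edgeR they were 0.0408, 0.0230 and 0.0664 in that order. On library totals the differences shrank to -0.010 for mmu-miR-10a-5p (adjusted p = 0.986, edgeR) and -0.049 for mmu-miR-10b-5p (adjusted p = 0.895), while that of mmu-miR-615-3p grew to 0.79 (adjusted p = 0.0111). The remaining members had log2 differences of -0.12 (mmu-miR-196a-5p, 0.18 on library totals), 0.13 (mmu-miR-196b-5p, 0.41 on library totals) and -0.14 (mmu-miR-10b-3p, 0.12 on library totals), and none passed the test of edgeR. When a library was left out, mmu-miR-196a-5p ran from -0.27 to -0.067 and mmu-miR-196b-5p from 0.019 to 0.21. Library totals moved the median over all miRNAs tested from 0.09 to 0.36.

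The call of mmu-miR-615-3p between the knockouts was also lost without the count filter (adjusted p = 0.0553, edgeR). Leaving out a library lost it in 5 of 6 cases. Without Mbnl1KO replicate 1 the adjusted p was 0.175, without Mbnl1KO replicate 3 it was 0.166, and on leaving out Mbnl2KO replicate 1, 2 or 3 it was 0.208, 0.0741 or 0.0546.

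**Figure D3:**
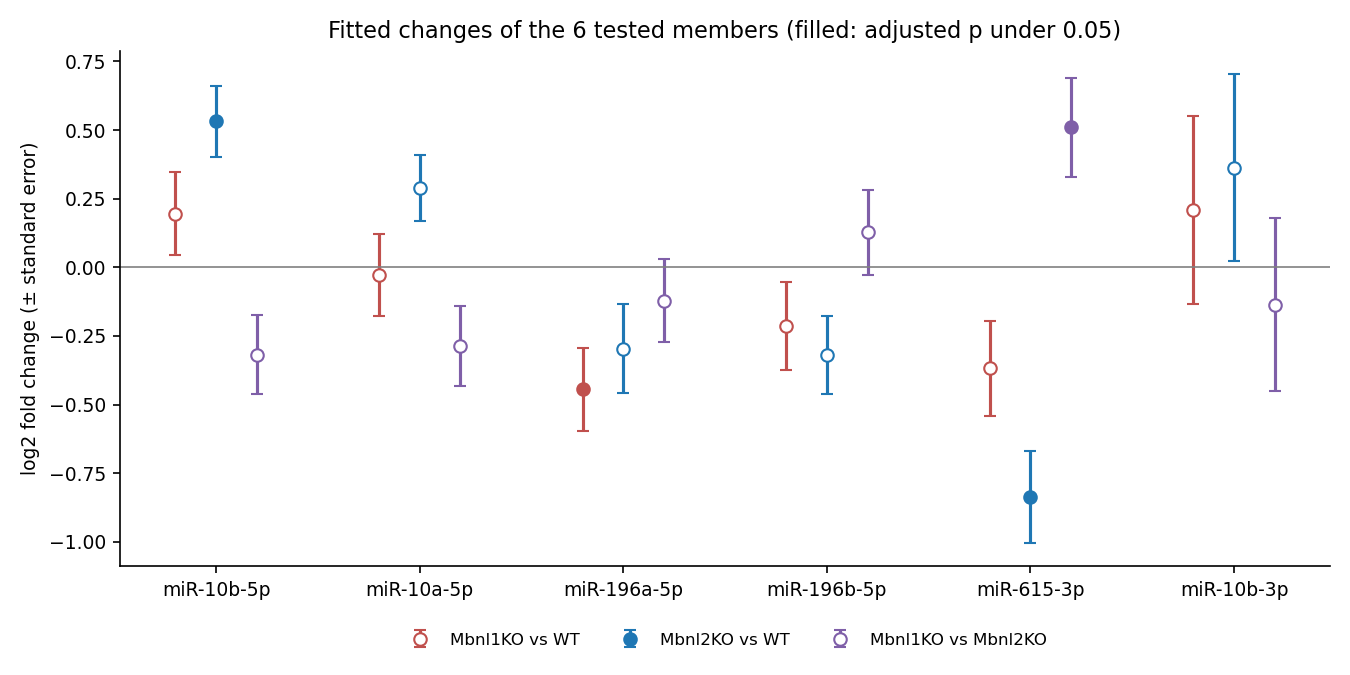
Log2 fold change (y axis, with SE as whiskers, n = 3 against 3) of the 6 tested members (x axis) in Mbnl1KO against WT, Mbnl2KO against WT and Mbnl1KO against Mbnl2KO. Filled circles have an adjusted p under 0.05 by edgeR; these are miR-196a-5p in Mbnl1KO, miR-10b-5p and miR-615-3p in Mbnl2KO, and miR-615-3p between the knockouts.

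**Figure D4:**
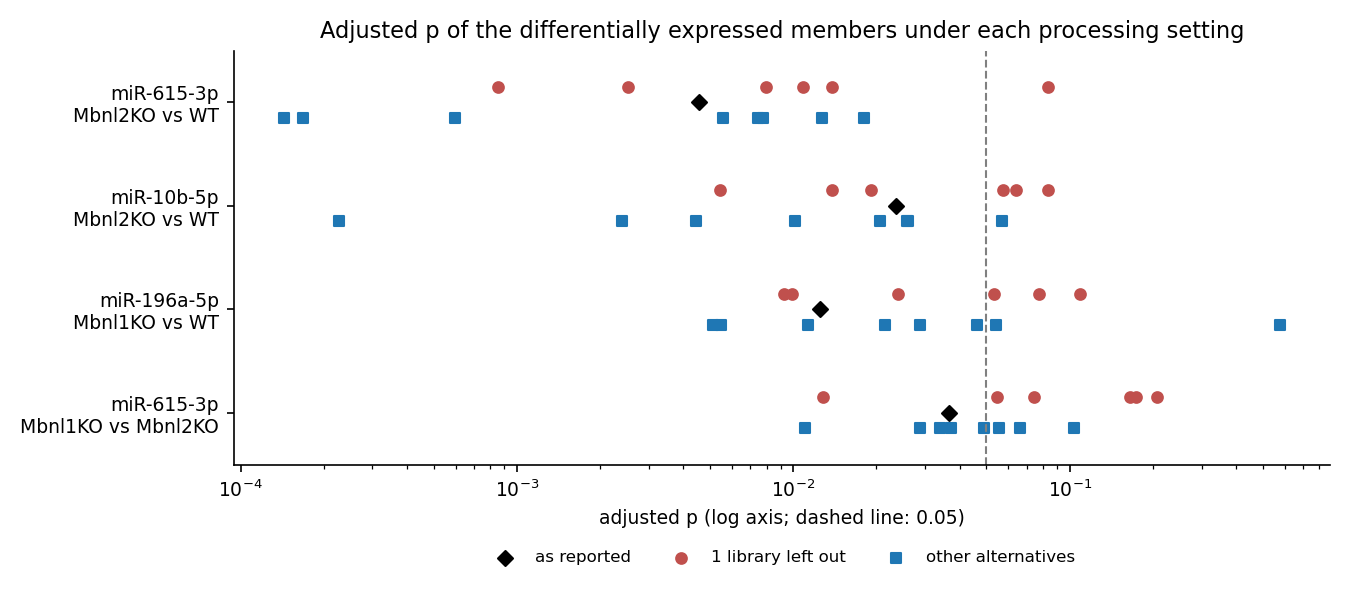
Adjusted p (x axis, log scale, dashed line at 0.05) for the 4 differentially expressed member-comparison pairs (y axis). Diamonds are the values reported, circles leave out 1 library and squares are the other processing alternatives. Only for miR-615-3p in Mbnl2KO does a single value, without WT replicate 2, lie right of the line.

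A ratio of 2 members within a library needs no scaling between libraries. The ratio of mmu-miR-10b-5p to mmu-miR-615-3p was 27.5, 20.2 and 34.2 in WT replicates 1 to 3. It was 33.3, 50.1 and 36.1 in Mbnl1KO and 86.6, 67.0 and 55.5 in Mbnl2KO. Every Mbnl2KO library lay above all 6 others, and Mbnl1KO overlapped WT. The log2 ratio was higher by 1.36 in Mbnl2KO than in WT (exact permutation test, two-sided, p = 0.1, adjusted p = 0.3 over 6 ratios).

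The log2 ratio of mmu-miR-10b-5p to mmu-miR-196a-5p was higher than in WT by 0.63 in Mbnl1KO and by 0.83 in Mbnl2KO, with no overlap in either case (exact permutation test, two-sided, p = 0.1 each). With 3 libraries against 3 this test cannot go below 0.1. For the pairs that share a seed the groups overlapped. The log2 ratio of mmu-miR-10b-5p to mmu-miR-10a-5p differed from WT by 0.23 in Mbnl1KO and 0.25 in Mbnl2KO. That of mmu-miR-196a-5p to mmu-miR-196b-5p differed by -0.22 and 0.01.

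**Figure D5:**
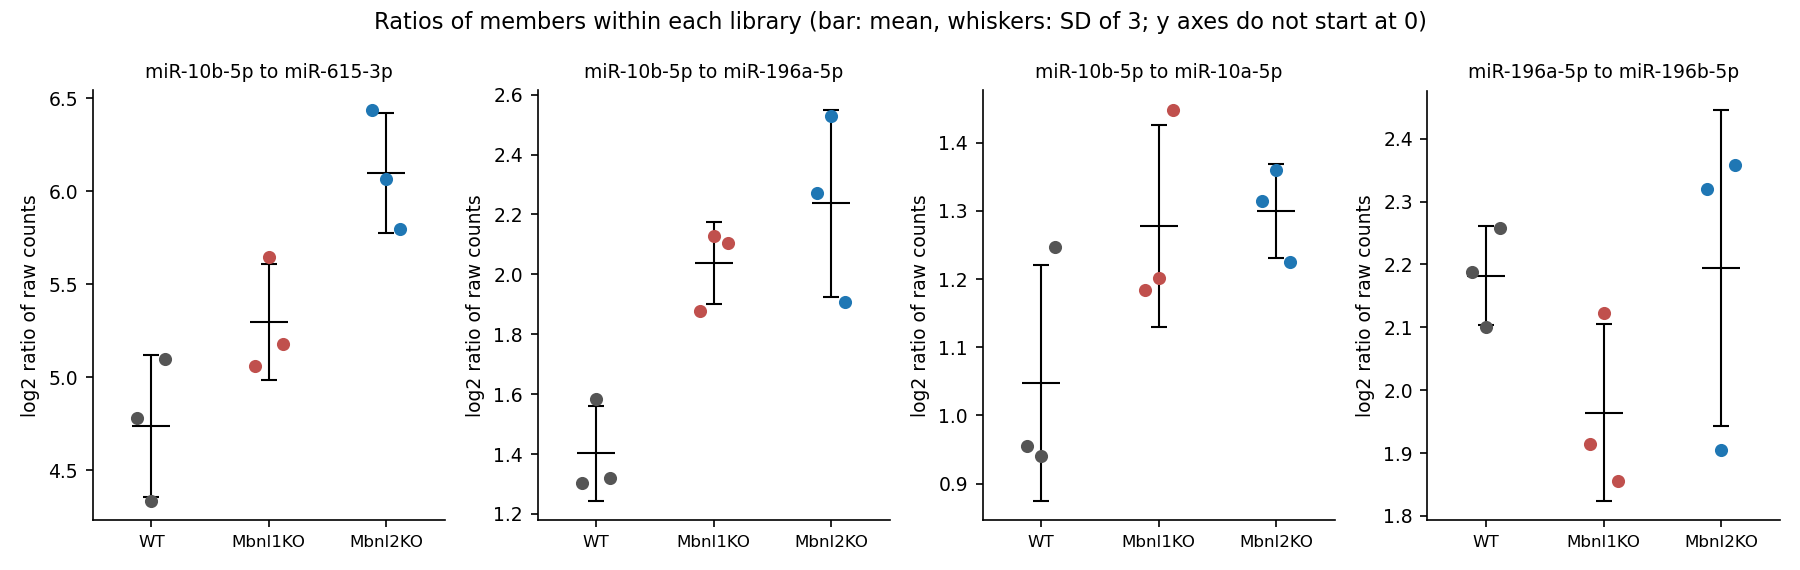
Log2 ratio of raw counts (y axis, not starting at 0) of 4 pairs of members within each library, by group (x axis). Points are libraries, bars are means and whiskers are SD (n = 3). The ratio of miR-10b-5p to miR-615-3p separates Mbnl2KO from the other 6 libraries, whereas groups overlap for miR-196a-5p to miR-196b-5p.

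Since members with the same seed can act on the same targets, their CPM were summed. The miR-10-5p sum was 3195, 3470 and 3874 CPM in WT, 3951, 4205 and 3871 CPM in Mbnl1KO and 5226, 4793 and 4528 CPM in Mbnl2KO. It was higher by 0.47 on the log2 scale in Mbnl2KO than in WT, without overlap (exact permutation test, two-sided, p = 0.1). This separation depended on TMM. With unscaled totals, Mbnl2KO replicate 3 fell below WT replicate 3 and these groups overlapped, whereas Mbnl1KO lay above WT. The miR-196 sum was 1043, 939 and 1319 CPM in WT, 944, 825 and 841 CPM in Mbnl1KO and 927, 757 and 1010 CPM in Mbnl2KO, and the groups overlapped. With unscaled totals the miR-196 sum of every Mbnl2KO library lay below WT.

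The miR-10 relatives outside the Hox clusters, which carry other seeds, were all 5 tested. In Mbnl1KO 0 rose and 2 fell, mmu-miR-100-5p by 0.71 on the log2 scale (adjusted p = 2.1e-05, edgeR) and mmu-miR-125b-5p by 0.42 (adjusted p = 0.0204). In Mbnl2KO mmu-miR-100-5p alone fell, by 0.52 (adjusted p = 0.0265). The median of their log2 fold changes was -0.19 in Mbnl1KO and 0.03 in Mbnl2KO, against -0.01 and 0.01 for all tested miRNAs.

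For 8 miRNAs of connective tissue and vessel wall, the summed level lay between 6281 and 6654 CPM in WT libraries. Mbnl1KO libraries held 5958 to 8578 CPM, and those of Mbnl2KO held 7722 to 8723 CPM. Most of this sum was mmu-miR-143-3p in each group. In Mbnl2KO 6 were tested and mmu-miR-143-3p alone rose, by 0.47 on the log2 scale (adjusted p = 0.0274, edgeR), while in Mbnl1KO mmu-miR-199a-3p alone fell, by 0.43 (adjusted p = 0.0172). The others tested in Mbnl2KO ran from -0.12 (mmu-miR-214-3p) to 0.21 (mmu-miR-199b-5p). Both mmu-miR-126a arms of that list were at 0 in all libraries. This sum was thus higher than in every WT library in all 3 Mbnl2KO libraries, as was mmu-miR-10b-5p, and its part in that result was not tested. The sum of 8 immune and blood miRNAs was 471 to 551, 485 to 597 and 514 to 555 CPM in the 3 groups. Of 6 tested, 0 passed the test in Mbnl2KO, while in Mbnl1KO 1 rose and 3 fell. In Mbnl1KO mmu-miR-155-5p rose by 0.86 on the log2 scale (adjusted p = 4.6e-06, edgeR), mmu-miR-223-3p fell by 0.87 (adjusted p = 1.8e-05), mmu-miR-142a-5p fell by 0.84 (adjusted p = 0.0281) and mmu-miR-146a-5p fell by 0.49 (adjusted p = 0.0144). These markers thus moved in the comparison in which mmu-miR-196a-5p fell, and their part in that result was not tested. The sum of 7 muscle miRNAs ran from 796106 to 846736 CPM (WT), from 568637 to 729068 CPM (Mbnl1KO) and from 694800 to 959047 CPM (Mbnl2KO), most of it mmu-miR-1a-3p. Of 5 tested in Mbnl1KO, mmu-miR-1a-3p fell by 0.40 on the log2 scale (adjusted p = 0.0451, edgeR), whereas mmu-miR-206-3p rose by 1.93 (adjusted p = 1.2e-30) and mmu-miR-133b-3p rose by 0.72 (adjusted p = 0.0148). In Mbnl2KO mmu-miR-206-3p alone rose, by 0.89 (adjusted p = 0.0021). The part of these changes in the members' results was not tested.

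Markers also moved between the knockouts, where mmu-miR-615-3p was called. Among the immune miRNAs, mmu-miR-155-5p was higher in Mbnl1KO by 1.32 on the log2 scale (adjusted p = 0.00185, edgeR). The log2 differences of mmu-miR-142a-5p (-1.16), mmu-miR-223-3p (-0.96) and mmu-miR-146a-5p (-0.43) were called lower. Of the connective tissue list, mmu-miR-199a-3p (-0.42) and mmu-miR-199b-5p (-0.62) were called lower. The muscle miRNAs mmu-miR-206-3p (1.07) and mmu-miR-133b-3p (0.90) were called higher. Their part in the difference of mmu-miR-615-3p was not tested.

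Patterns of the members across the 9 libraries were compared with those of 288 miRNAs tested in all comparisons, as Pearson's r of log2 normalized counts. The libraries share groups and depth differences, so r is given as a description. Most like mmu-miR-615-3p was mmu-miR-149-5p (r = 0.91, and 0.92 for deviations from the group means), followed by mmu-miR-186-5p (0.86, and 0.58 for deviations) and mmu-miR-5113 (0.84, and 0.44). Most like mmu-miR-10b-5p were mmu-miR-503-3p (0.89), mmu-miR-15b-5p (0.82) and mmu-miR-148a-3p (0.80). For deviations from the group means these 3 had only 0.32, 0.074 and -0.12. For mmu-miR-10a-5p they were mmu-miR-708-3p (0.85), mmu-miR-150-5p (0.83) and mmu-miR-335-3p (0.81), with 0.65, 0.54 and 0.39 for deviations. For mmu-miR-196a-5p they were mmu-let-7d-5p (0.90), mmu-miR-664-5p (0.86) and mmu-miR-29b-1-5p (0.81), with 0.92, 0.76 and 0.75 for deviations. For mmu-miR-196b-5p they were mmu-miR-350-3p (0.91), mmu-miR-5113 (0.76) and mmu-miR-29c-5p (0.75), with 0.87, 0.47 and 0.76 for deviations. mmu-miR-10b-3p was most like mmu-miR-145a-3p (0.74), mmu-miR-143-5p (0.71) and mmu-miR-143-3p (0.68), with 0.73, 0.79 and 0.61 for deviations.

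Between members, mmu-miR-10b-5p and mmu-miR-615-3p had r = -0.85 across the 9 libraries and -0.41 for deviations from the group means. mmu-miR-10a-5p and mmu-miR-10b-5p had 0.78 and 0.36. mmu-miR-196a-5p and mmu-miR-196b-5p had 0.68 and 0.63.

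MBNL proteins bind RNA at short motifs with a GC core between pyrimidines, so the hairpins were searched on the transcribed strand for UGCU and for UGCC, and likewise for CGCU and for CGCC. Mir10a, Mir196a-1, Mir196a-2 and Mir196b each held 1 match and Mir10b held 0. At least 1 match was found in 68.1% of 1005 hairpins, and in 70.8% of the 636 hairpins within the members' length range. The absence in Mir10b says only that these letters are not in that hairpin.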

How the data were processed

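The authors deposited 1 table of raw counts, reads assigned to each mature miRNA, without normalization. According to the study's methods, libraries were made with the NEXTflex Small RNA-Seq Kit, and reads without mismatches to miRBase precursors were counted. Whether this counting made the deposited table is not given in the sources used here. Counts were compared with edgeR 4.0.16 (R 4.3.3), quasi-likelihood test, TMM and Benjamini-Hochberg adjustment over all miRNAs with a mean normalized count above 10, on the 6 libraries compared. Ratios of raw counts used a pseudocount of 0.5 and an exact permutation test (SciPy 1.17.1). Alternatives included DESeq2 1.42.0, library totals, filters, thresholds, all 9 libraries and leaving out each library. Nearest patterns were the 3 miRNAs of highest r. The members, lists and tests were chosen with earlier results of these data known. The labels do not say that libraries came from separate mice, so p-values measure the spread between libraries. Replicate pairs differed beyond counting noise (chi-square per degree of freedom 38.8 to 272). Sequences came from RefSeq and GRCm39. The hairpin of Mir615 was not analysed here. Counts of seed matches over the Hox genes are not reported here.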

Additional observations from a re-analysis of the deposited data

Results flagged for a closer look

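Between the knockouts, mmu-miR-615-3p was the 1 member of 6 tested that differed, against 27.3% of all 311 miRNAs tested. Mbnl1KO exceeded Mbnl2KO by 0.51 on the log2 scale (adjusted p = 0.0366 by edgeR's quasi-likelihood test), and the level was higher in 3 of 3 Mbnl1KO libraries than in any Mbnl2KO library. Groups failed to overlap in this way for 42.8% of all tested. The call was lost in 8 of 14 alternatives, among them DESeq2's Wald test (adjusted p = 0.104), and the adjusted p ran from 0.0111 to 0.208 over all of them. The knockouts also differ in labelled strain, which cannot be told apart from genotype. Groups of 3 libraries are too small for the test of single outlying samples.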

How the results depend on the processing

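Fold changes of members kept their direction and side of the threshold in 216 of the recomputed values, while 18 lost and 6 gained a call and 9 changed sign. In Mbnl1KO against WT the number of members called was 1. It was 0 with all 9 libraries in 1 fit and at an adjusted p under 0.01, and 0 to 2 when a library was left out. In Mbnl2KO against WT it was 2, then 1 with library totals and at 0.01, and 0 to 2 when a library was left out. Between the knockouts it was 1, then 2 with DESeq2 size factors or DESeq2's Wald test, 0 without the filter and at 0.01, and 0 to 1 when a library was left out. The replicate numbers did not pair the libraries (correlations of deviations from -0.22 to 0.14), and with the replicate block 1, 2 and 1 members were called in the 3 comparisons.

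Values that changed sign in Mbnl1KO against WT were mmu-miR-10a-5p (0.28 on library totals, 0.044 without miR-1a-3p in the totals and 0.040 with all 9 libraries, and -0.100 to 0.076 leaving out a library), mmu-miR-196b-5p (0.093 on library totals) and mmu-miR-10b-3p (-0.034 to 0.59 leaving out a library). Its log2 ratio of mmu-miR-10b-5p to mmu-miR-10b-3p was 0.0093 with a pseudocount of 1 and -0.30 to 0.20 leaving out a library. In Mbnl2KO against WT that ratio ranged from -0.11 to 0.25, and mmu-miR-196a-5p to mmu-miR-196b-5p from -0.070 to 0.16. Between the knockouts library totals gave 0.18 for mmu-miR-196a-5p, 0.12 for mmu-miR-10b-3p and 0.21 for the miR-196 sum. Leaving out a library gave -0.38 to 0.12 for mmu-miR-10b-3p, -0.16 to 0.052 for the miR-196 sum, -0.11 to 0.025 for the ratio of mmu-miR-10b-5p to mmu-miR-10a-5p and -0.42 to 0.078 for that to mmu-miR-10b-3p. The cause of these changes was not tested. The low counts of the minor arms limit what can be read from them.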

Other observations

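The sum of 3 neural miRNAs lay between 467 and 570 CPM in WT, between 588 and 666 CPM in Mbnl1KO and between 401 and 547 CPM in Mbnl2KO, with mmu-miR-9-5p at 0 throughout. Only mmu-miR-128-3p of that list reached the count needed for testing, and it made up most of the sum. It was not called against WT in Mbnl1KO (log2 fold change 0.22, adjusted p = 0.260, edgeR) or in Mbnl2KO (-0.07, adjusted p = 0.824). The sum of 4 epithelial miRNAs lay between 1.85 and 4.55 CPM in WT, 2.01 and 4.23 CPM in Mbnl1KO and 2.21 and 2.84 CPM in Mbnl2KO, with mmu-miR-203-3p listed at 0 throughout.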
